A study of Homo sapiens with 4 samples.

Results

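The regions described here are accessible sites that lie in exons far from any promoter and that were called in only 1 of a pair of prostate cancer lines. ATAC-seq, which marks open chromatin by where the transposase Tn5 can insert, was run on C4-2B, a line of prostate adenocarcinoma, and on C4-2BER, a neuroendocrine-like line obtained from it by continuous exposure to the antiandrogen enzalutamide. Both lines were grown in RPMI with fetal bovine serum. By the study's methods C4-2BER was also kept in enzalutamide throughout, so the state of the line and the presence of the drug cannot be told apart. Each line had 2 libraries, which the authors merged before macs2 called peaks, so the data are 1 peak list per line and no difference below has a replicate check. Members were chosen by the called intervals themselves. An interval had to overlap no interval of the other list, to have its midpoint more than 2000 bp from every transcription start site (TSS) of a protein-coding gene, and to have that midpoint in an exon of a protein-coding gene. Of 268404 intervals in both lists, 3044 met the rule, of which 2214 came from the C4-2B list and 830 from the C4-2BER list. Positions are in hg38.

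Most accessible sites lie in promoters, introns or between genes. An exon that lies far inside a gene is mainly known as template for messenger RNA, but the same DNA can also carry binding sites for transcription factors, so that an exon can act as an enhancer or contain the start of a shorter transcript. In prostate adenocarcinoma, androgen response elements in use often lie next to sites opened by the forkhead factor FOXA1. GC-rich stretches that hold many CpG dinucleotides (CpG islands) are typical of promoters and carry sites for SP1, which binds the GC box.

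The sequences below show the contrast that the following paragraphs measure. Each is 30 bases of the reference genome within a member, written 5′ to 3′ with the motif in capitals. The C4-2B-only members of highest −log10 q that held an androgen response element lay in SLC38A4 (chr12:46793164-46793193), SLC8A1 (chr2:40114091-40114120), PLD1 (chr3:171765338-171765367) and BMPR2 (chr2:202556391-202556420), and those with a forkhead match lay in KAT6B (chr10:74960773-74960802) and ADARB1 (chr21:45226131-45226160). The strongest C4-2BER-only members with a GC box lay in PRKD2 (chr19:46678320-46678349), PRR14L (chr22:31676868-31676897), CACNB1 (chr17:39177425-39177454), SRRM3 (chr7:76235302-76235331) and STX1A (chr7:73704109-73704138). All are read on the plus strand. Beyond the strongest per motif and line, these were chosen after their values were seen.
SLC38A4, androgen response element: gatgttcAGAACACTCTGTTCTgcaaacag
SLC8A1, androgen response element: aaatgggAGAACAGTATGTACTatactcta
PLD1, androgen response element: gtacccaAGAACAAAATGTTCCaacaacaa
BMPR2, androgen response element: catgttcAGAACAAGATGTTCTtgcacagg
KAT6B, forkhead: tgagggcacaaGTAAACAccctggcacaag
ADARB1, forkhead: ctgcactttctTGTTTACtgtttgaaggga
PRKD2, GC box: cctctcatggctCCGCCCacttctccagcc
PRR14L, GC box: tctcggatggccCCGCCCctccggagagct
CACNB1, GC box: tggcgtgctgctGGGCGGgtgtgtggcctt
SRRM3, GC box: gagcaggccgcgGGGCGGgactggggtggg
STX1A, GC box: aggctccaggccCCGCCCcaggccccaccc

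The numbers of members were further apart than the sizes of the lists, which held 149676 intervals in C4-2B and 118728 in C4-2BER. In both lines the line-only share of exonic distal intervals was below that of all distal intervals. In C4-2B, 2214 of 5726 exonic distal intervals had no counterpart in C4-2BER (38.7%, Wilson 95% interval 37.4 to 39.9), beside 41.9% of all distal intervals and 37.7% of all intervals of that list. In C4-2BER, 830 of 4439 had no counterpart (18.7%, 95% interval 17.6 to 19.9), beside 22.5% of distal and 20.8% of all intervals. All these values follow from the rule and are given as a description. Depth differed between the lists. The lowest background was 2.24 reads per 200 bp in C4-2B and 1.87 in C4-2BER, a ratio of 1.196, and its part in the unequal numbers was not tested. Intervals and limits on shares cover counting error only. Promoter peaks were present in both lists at 9 of 9 luminal markers, among them KLK3, and at 12 of 12 neuroendocrine markers, among them CHGA and SYP, so the markers did not separate the lines by presence of a promoter peak. PTPRC and KRT14, markers of leukocytes and basal cells, had none in either list. PECAM1 had one in the C4-2BER list alone, KRT5 in the C4-2B list alone, and COL1A1 in both.

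Members were weak peaks. The −log10 q of macs2, adjusted within its own list, had a median of 7.60 (quartiles 4.80 and 13.2) in C4-2B-only members and 24.02 in the 3512 exonic distal intervals of the same list that overlapped C4-2BER. C4-2BER-only members had a median of 5.89 (quartiles 3.79 and 9.43), beside 13.5 in the 3609 shared ones. The median summit held 19 reads in C4-2B-only and 16 reads in C4-2BER-only members, and the median width was 273 and 257 bp. Strong members, with a −log10 q from 10 upwards, made up 35.6% of the C4-2B-only (788) and 22.8% of the C4-2BER-only members (189). The fold over background had a median of 4.62 and 4.201. The median gap to the nearest interval of the other list was 5806 bp for C4-2B-only and 4205 bp for C4-2BER-only members, and 178 and 123 of them lay within 500 bp of one.

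Some members sat at the edge of the rule. The C4-2BER-only member with the smallest gap lay in MEGF11, 7 bp from a C4-2B interval, with a −log10 q of 3.19. On the other side of that limit, shared intervals in LRRC27 (C4-2B list) and RIMBP2 (C4-2BER list) overlapped the other list by 4 and 3 bp. The members nearest to a TSS lay in IFNK at 2005 bp and LTB4R at 2011 bp, and the C4-2B-only exonic interval just under the limit lay in ANKRD24 at 1998 bp.

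**Figure D1:**
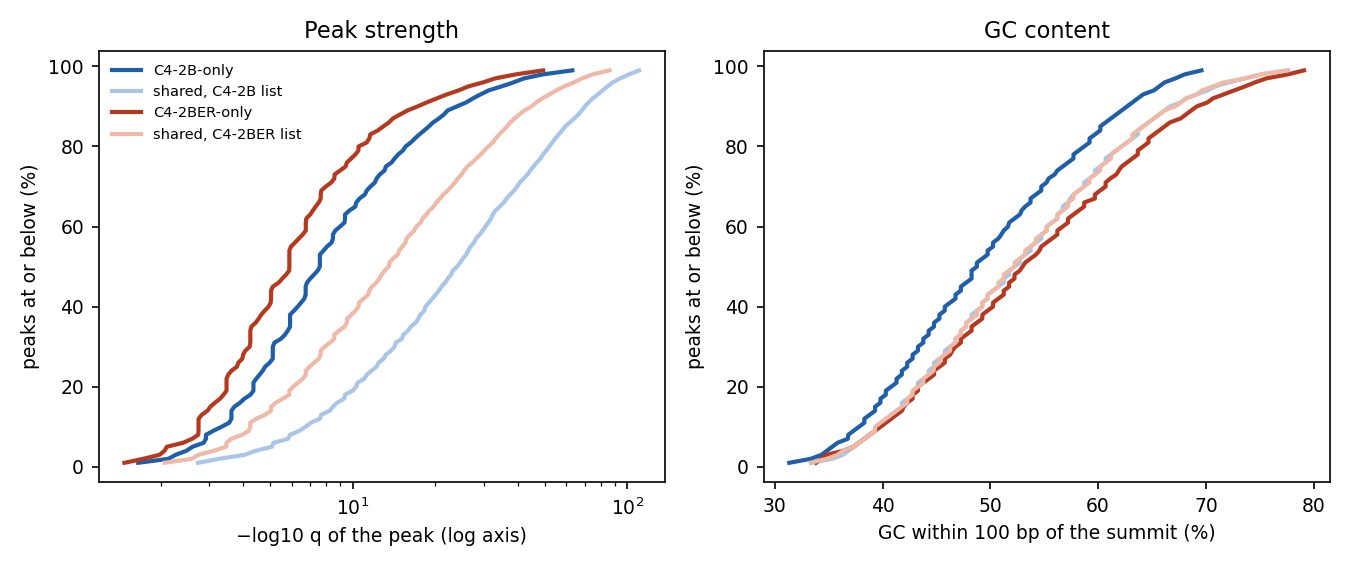
Cumulative percentage of exonic distal peaks (vertical axes) against −log10 q on a log axis (left) and GC content within 100 bp of the summit in percent (right), from the percentiles 1 to 99. Dark lines are line-only members and pale lines shared intervals of the same list. Members lie left of shared peaks in strength, and in GC the C4-2B-only line lies left of the shared lines (medians 48.8% and 52.2%) while the C4-2BER-only line lies right of them at the GC-rich end.

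The next question was in which exons the members lay. Coding sequence held 814 of the C4-2B-only members (36.8%, 95% interval 34.8 to 38.8) and 280 of the C4-2BER-only members (33.7%, 95% interval 30.6 to 37.0). The 3′ untranslated region (UTR) held 891 (40.2%, 38.2 to 42.3) and 313 (37.7%, 34.5 to 41.1). The 5′ UTR held 32 (1.45%) and 14 (1.69%). The remaining 477 (21.5%, 19.9 to 23.3) and 223 (26.9%, 23.96 to 29.98) lay in exons that belong only to other transcripts of a protein-coding gene, such as those with a retained intron. This last class was the one whose intervals did not overlap between the lines. Shared exonic distal peaks held 34.5% coding and 25.8% other transcripts in the C4-2B list, and 34.1% and 26.0% in the C4-2BER list. Of the 83645565 exon bases that lie more than 2000 bp from a TSS, 31.2% are coding, 0.955% 5′ UTR, 43.9% 3′ UTR and 24.02% in other transcripts. The C4-2B-only members therefore lay above this base share in coding sequence and below it in 3′ UTRs, and the C4-2BER-only members below it in 3′ UTRs. Shared peaks did the same, with 38.4% and 38.5% in 3′ UTRs and coding shares above the base share. These departures in coding sequence and 3′ UTRs were thus not particular to members. In other transcripts, C4-2B-only members lay below the base share (21.5%), while the shared peaks of that list lay above it (25.8%, 24.4 to 27.3).

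By place in the transcript, over 50% of the members of both lines lay in a last exon, which is usually the longest. Last exons held 1205 C4-2B-only members (54.4%, 95% interval 52.3 to 56.5) and 447 C4-2BER-only members (53.9%, 50.5 to 57.2), below the 59.8% of eligible bases that are in last exons. Shared peaks lay below it too, with 54.6% in either list. Inner exons held 808 (36.5%, 34.5 to 38.5) and 271 (32.7%, 29.5 to 35.9), and the exons of transcripts with a single exon held 33 and 8. First exons held 168 C4-2B-only members (7.59%, 6.56 to 8.77) and 104 C4-2BER-only members (12.5%, 10.4 to 14.96), beside 11.2% and 11.3% of shared peaks and 8.45% of eligible bases. Of these, 162 and 103 lay in other transcripts, and 151 and 101 were within 2000 bp of the start of a transcript that is not labelled protein coding but belongs to such a gene. The difference in first exons therefore rests on which transcripts count as start sites in the rule. A start site of any such transcript lay within 2000 bp of 24.8% of C4-2B-only members (95% interval 22.999 to 26.6) and 32.9% of C4-2BER-only members (29.8 to 36.2), and of 30.8% and 30.9% of shared peaks. The exon around a member had a median length of 1429 bp for the C4-2B-only and 1056 bp for the C4-2BER-only members, beside 1304 and 1277 bp for shared peaks. The interval lay wholly within exons for 1329 (60.03%) and 491 members (59.2%), and elsewhere it reached into an intron or beyond the gene.

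**Figure D2:**
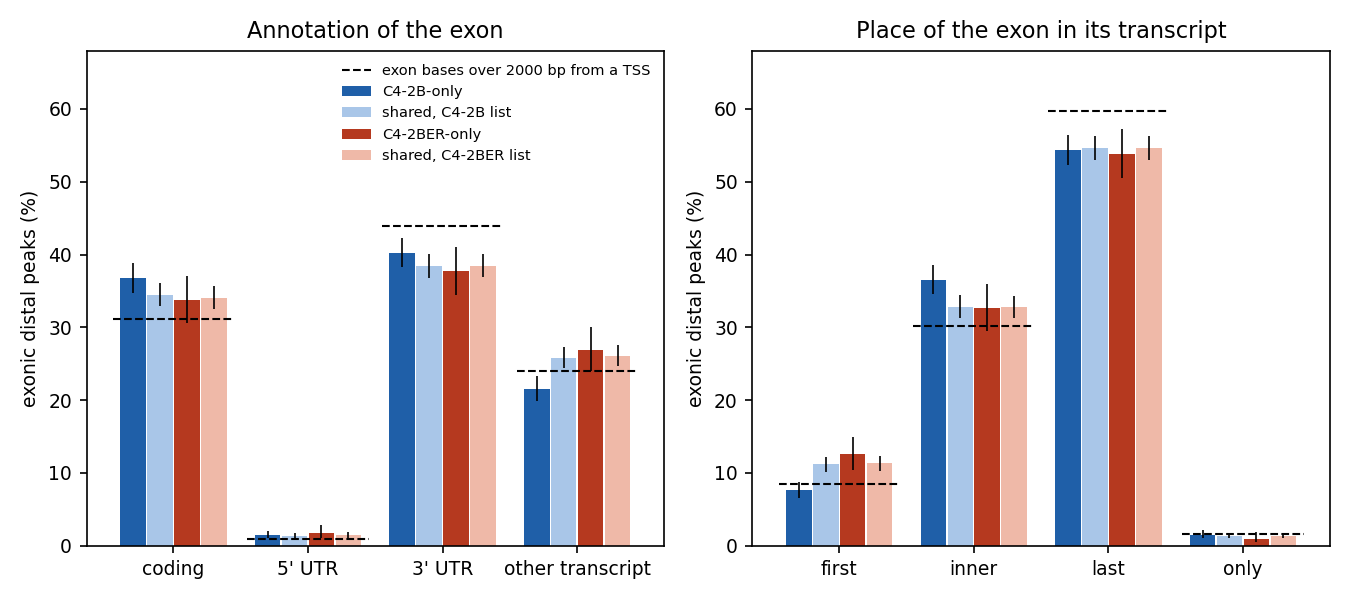
Percentage of exonic distal peaks (vertical axes) by annotation of the exon (left) and place of the exon in its transcript (right), with Wilson 95% intervals as bars of error. Dark bars are line-only members, pale bars shared intervals, and dashed lines the share of exon bases that lie more than 2000 bp from a TSS. Of the 4 sets, C4-2B-only members have the lowest share in first exons (7.59%) and in other transcripts (21.5%).

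Base composition differed between the members of the lines. GC content within 100 bp of the summit had a median of 48.8% in C4-2B-only members (quartiles 42.3% and 56.7%) and 53.0% in C4-2BER-only members (45.3% and 62.2%), beside 52.2% in the shared peaks of either list. All line-only distal peaks, most of them outside exons, differed in the same direction, with medians of 45.3% in C4-2B and 48.3% in C4-2BER. A GC content above 60% was found in 369 C4-2B-only (16.7%, 95% interval 15.2 to 18.3) and 264 C4-2BER-only members (31.8%, 28.7 to 35.1), and in 25.5% and 26.1% of shared peaks. The ratio of observed to expected CpG dinucleotides was above 0.6, a level used to mark CpG islands, in 116 C4-2B-only (5.24%, 4.39 to 6.25) and 130 C4-2BER-only members (15.7%, 13.3 to 18.3), beside 13.7% and 13.9% of shared peaks. The gap was seen in each of the larger classes of exon. In coding sequence the median was 51.2% in C4-2B-only and 58.2% in C4-2BER-only members, in 3′ UTRs 47.3% and 50.7%, and in other transcripts 47.3% and 51.7%. Among strong members, those from a −log10 q of 10 upwards, the medians were 47.3% and 61.2%. Each line is 1 merged set of libraries, so library and line cannot be told apart here.

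Consensus motifs were searched on both strands in the 201 bp centred on the summit. The letters were GGGCGG for the GC box of SP1, TGTTTAC for forkhead factors such as FOXA1, and AGATAA for the GATA family. They were CAGCTG for the E-box of basic helix-loop-helix factors, TGANTCA for AP-1, which pairs FOS with JUN proteins, and CCGGAAG for the ETS family. For the nuclear receptor HNF4 they were CAAAGTCCA, for the promoter factor NRF1 GCGCANGCG, and for pairs of PBX and HOX proteins TGATTNAT. The PAX5 core was searched as GCGTGAC, and the site of the prostate factor HOXB13 as CTCGTAAA. The androgen response element, CTCF and REST were searched by longer consensus sequences. Matches of different motifs may overlap, and a match is not evidence of binding. The GC box of SP1 was found in 147 C4-2B-only members (6.64%, 95% interval 5.68 to 7.75) and 164 C4-2BER-only members (19.8%, 17.2 to 22.6), with 13.7% and 14.4% of shared peaks between them. Over all distal peaks it was found in 6.42% of C4-2B and 8.72% of C4-2BER intervals, and over all line-only distal peaks in 3.55% (3.40 to 3.71) and 9.20% (8.82 to 9.59). The contrast between the lines was thus also present outside exons.

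Over all members, the forkhead motif went the other way. It was found in 194 C4-2B-only members (8.76%, 7.65 to 10.0) and 40 C4-2BER-only members (4.82%, 3.56 to 6.50), beside 6.58% and 5.93% of shared peaks and 11.0% and 8.60% of all distal peaks. Over all line-only distal peaks it was found in 12.5% and 6.61%. The androgen response element was found in 14 C4-2B-only members (0.632%, 0.377 to 1.06) and in 0 of 830 C4-2BER-only members (0 to 0.461), so that the intervals of the lines overlapped, and in 9 and 6 shared peaks. A count of 0, read as at most 3 counts, allows a share of up to 0.361% there. This limit is of another kind than the Wilson interval, and the overlap is stated for the Wilson interval only. Over all line-only distal peaks it was found in 0.640% (0.576 to 0.712) of C4-2B and 0.0139% (0.00473 to 0.0409) of C4-2BER intervals. GATA was found in 10.4% (9.19 to 11.7) and 7.11% (5.55 to 9.06). The NRF1 motif was found in 2 C4-2B-only members, in RPH3AL and ZNF555, and in 10 C4-2BER-only members, among them SRRM3, SLC16A8 and PLEKHG5. The site of CTCF, an insulator protein that many cell types bind at the same places, was found in 28 C4-2B-only members (1.26%, 0.876 to 1.82) and 27 C4-2BER-only members (3.25%, 2.25 to 4.69), far below the 8.31% and 8.62% of shared peaks, and in 0.763% and 2.30% of all line-only distal peaks. For E-box, AP-1, ETS, PBX-HOX, HNF4, PAX5 core, HOXB13 and REST, as for the androgen response element, the 95% intervals of both lines overlapped. PAX5 core, for PAX5, a paired-box factor that the study follows in neuroendocrine-like cells, was in 15 C4-2B-only (0.678%) and 6 C4-2BER-only members (0.723%), and REST, the repressor of neuronal genes, in 1 member of each, in USP7 and in the gene NRF1.

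**Figure D3:**
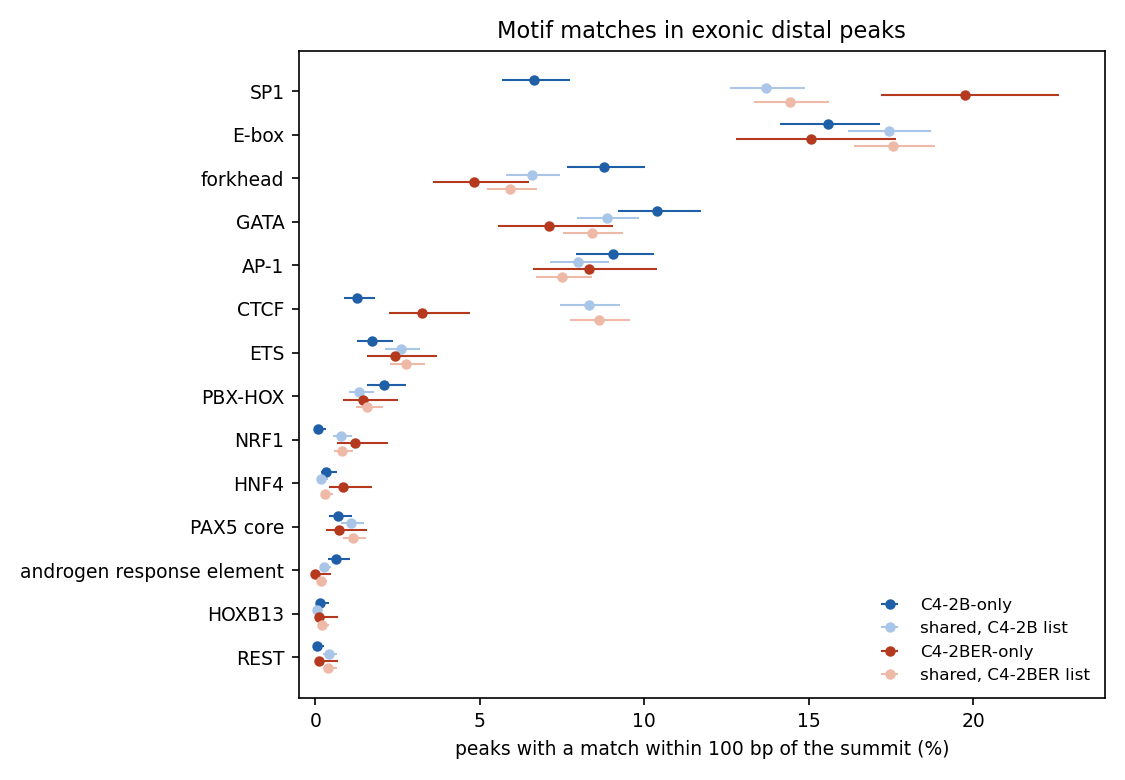
Percentage of exonic distal peaks with a consensus match within 100 bp of the summit (horizontal axis) for 14 motifs, as points with Wilson 95% intervals. Dark points are line-only members and pale points shared intervals of the same list. SP1 separates the lines most (6.64% and 19.8%), and CTCF separates members from shared peaks (1.26% and 3.25% against 8.31% and 8.62%).

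Both motif differences were larger in strong peaks. Below a −log10 q of 5, the GC box was held by 9.52% of the C4-2B-only members (55) and by 12.2% of the C4-2BER-only members (41), with overlapping intervals. At 20 or more, the C4-2B-only members held it in 12 of 306 cases (3.92%, 2.26 to 6.73) and the C4-2BER-only members in 38 of 70 (54.3%, 42.7 to 65.4), beside 16.8% and 24.6% of shared peaks of that strength. The forkhead motif was in 5.36% and 5.65% of members below 5, and in 43 of 306 (14.1%, 10.6 to 18.4) and 2 of 70 (2.86%, 0.787 to 9.83) at 20 or more. GC content moved with it, since a GC above 60% was found in 6.86% of the members of that strength in C4-2B and 71.4% in C4-2BER. Among members with a GC content of 65% or more, 46 of 135 held the GC box in the C4-2B list (34.1%, 26.6 to 42.4) and 91 of 149 did so in the C4-2BER list (61.1%, 53.1 to 68.5), beside 53.2% and 54.9% of shared peaks. From 55% to 65% the shares were 13.3% (10.6 to 16.5) and 24.8% (19.6 to 30.9). From 45% to 55% they were 3.57% (2.47 to 5.15) and 6.18% (3.84 to 9.80), with overlapping intervals. In members with a GC content below 45%, forkhead was in 15.8% of C4-2B-only (13.5 to 18.5) and 10.5% of C4-2BER-only members (6.97 to 15.5). From 45% to 55% it was in 7.80% (6.10 to 9.94) and 3.47% (1.84 to 6.47). From 55% to 65% the order was the opposite, with 1.54% (0.782 to 3.01) and 4.50% (2.46 to 8.09), and at 65% or more it was in 0 of 135 and 0 of 149. Within no bin of GC content were the forkhead intervals of the lines apart. The bins were set after the values were seen.

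**Figure D4:**
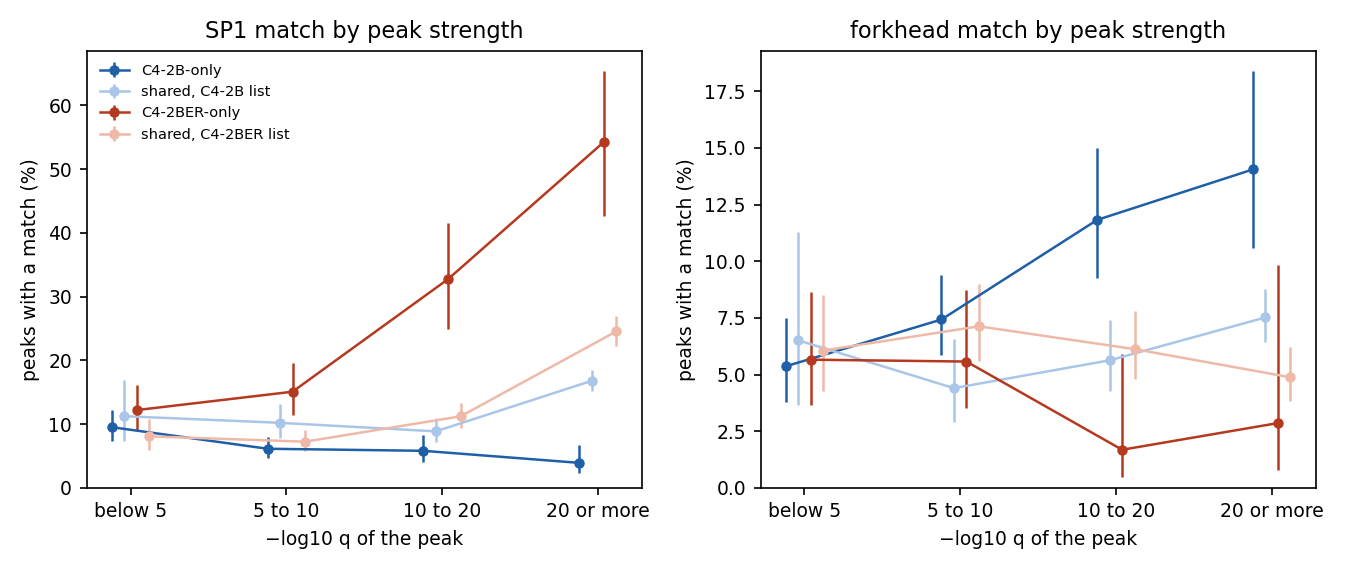
Percentage of exonic distal peaks with an SP1 match (left) or a forkhead match (right) on the vertical axes, in 4 bins of −log10 q on the horizontal axes, with Wilson 95% intervals. Dark points are line-only members and pale points shared intervals. In the bin of 20 or more, SP1 reaches 54.3% in C4-2BER-only and 3.92% in C4-2B-only members, and forkhead 2.86% and 14.1%.

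The strongest C4-2B-only members with no C4-2BER interval within 10 kb lay mainly in last exons, 9 of 12, and 6 of 12 in 3′ UTRs. Their summits held 57 to 127 reads, and 0 of 12 held a GC box. The strongest lay in TTC17 (chr11:43489584-43490562), in the opening exon of a transcript with 3 exons, with 127 reads at a fold of 14.7 over background and a −log10 q of 102. TNRC6B, a partner of Argonaute in gene silencing by microRNA, had 121 reads in the 3′ UTR of exon 23 (chr22:40327092-40327859). ADARB1, an enzyme that edits adenosine in RNA, had 110 reads in the 3′ UTR of exon 11 (chr21:45225472-45226551) and held a forkhead match. PDE8B, which degrades cyclic AMP, had 87 reads in coding exon 4 of 22, an exon shared with an overlapping gene model, and its promoter had a peak in the C4-2B list alone. SLC8A1, the sodium and calcium exchanger of heart muscle, had 68 reads in the 3′ UTR of its last exon, at an androgen response element, while its promoter had a peak in the C4-2BER list alone. CCDC66 had the highest fold of these, 19.5, with 62 reads in coding exon 9 of 18. MROH7, TRIM66, MIPOL1, OR52I2, MAP3K21 and FKBP14 had 57 to 79 reads.

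The strongest C4-2BER-only members with no C4-2B interval within 10 kb were weaker, with 25 to 104 reads, and 9 of 12 held a GC box. Their GC content ran from 49.3% to 71.1% (median 61.9%), beside 35.8% to 53.7% (median 46.5%) in the C4-2B-only ones. These 12 were drawn from 161 members with such a gap, beside 651 in C4-2B, and from the list of lower depth. The part of either in their lower strength was not tested. PRR14L had 101 reads at a fold of 16.3 in coding sequence of its last exon (chr22:31676515-31677221), with a −log10 q of 87.0. STX1A, a syntaxin that drives the fusion of synaptic vesicles, had 104 reads in the opening exon of a shorter transcript (chr7:73703915-73704719). CACNG7, a subunit linked to calcium channels and glutamate receptors in neurons, had 79 reads in the 3′ UTR of its last exon (chr19:53942023-53942876). DEPDC5, a brake on mTORC1 signalling, had 59 reads in coding exon 32 of 43, and ARAP1 71 reads in coding exon 21 of 35. PRDM9, which places recombination sites in germ cells, had 62 reads in its last exon. CRY1, a repressor of the circadian clock, had 38 reads at a GC content of 49.3%, with an HNF4 match. PHLDB3, STK31, PDIA5 and AP2A1 had 25 to 57 reads.

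**Figure D5:**
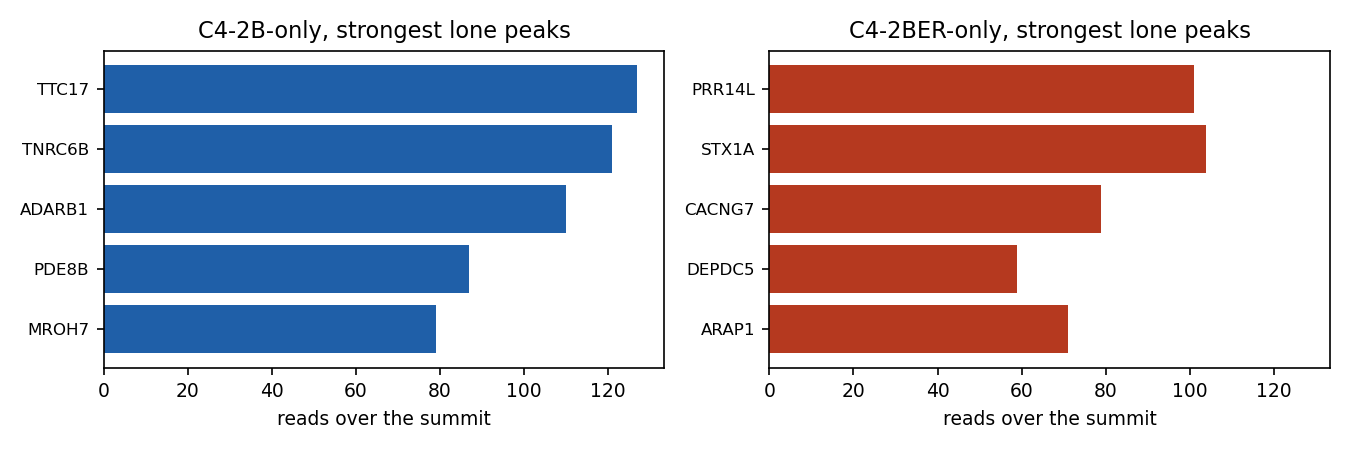
Reads over the summit (horizontal axes) of the 5 members of highest −log10 q per line with no interval of the other list within 10 kb, named by host gene and ordered by −log10 q. Each bar is 1 peak of a merged list and has no error; they run from 79 to 127 reads in C4-2B and from 59 to 104 reads in C4-2BER.

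When the nearness of other intervals was ignored, 30 of highest −log10 q per line gave the same contrast, chosen after their values were seen. Among the C4-2B-only ones 0 of 30 held a GC box and 4 a forkhead match, and among the C4-2BER-only ones 23 of 30 and 0. PRKD2, a protein kinase D, had the highest C4-2BER-only value, with 109 reads in coding exon 16 of 18 and a −log10 q of 87.6. CACNB1, a subunit of voltage-gated calcium channels, had 103 reads in coding exon 13 of 14, and SRRM3, a splicing factor of neuronal microexons, 101 reads in coding exon 2 of 15. SLC38A4, an amino acid carrier, had 99 reads at a fold of 19.3 in coding exon 3 of 17 among C4-2B-only members, with an androgen response element 62 bp from the summit.

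The members were spread over many genes. C4-2B-only members lay in 1995 of 19689 protein-coding genes (10.1%) and C4-2BER-only members in 789 (4.01%), and 1765 and 739 of these genes held a single member. RYR1, the calcium release channel of skeletal muscle, held the most, 4 C4-2B-only members in coding exons 12, 24, 36 and 49 of 106, with 14 to 43 reads. In all, 26 genes held 3 or more C4-2B-only members, so the genes named next are tied with others. SETD7, a lysine methyltransferase, held 3, of which 1 had 93 reads and a −log10 q of 84.3. SLC1A2, a glutamate carrier of glia, held 3 with 10 to 70 reads, UNC13C, which primes synaptic vesicles, 3 with 13 to 48, RBM20, a splicing regulator of heart muscle, 3 with 28 to 57, and MYLK, the kinase of smooth muscle myosin, 3 with 15 to 90. In C4-2BER, EIF2AK4, a kinase that senses amino acid shortage, held 3 with 13 to 41 reads, and AP2A1, a subunit of the clathrin adaptor, 3 with 46 to 78. ZEB2, a repressor of epithelial genes, held 3 with 11 to 36 reads, all in other transcripts. ABCC9 held 3 with 16 to 18 reads, at least 63635 bp from any C4-2B interval and with a promoter peak in the C4-2BER list alone, and SMAGP 3 with 19 to 21 reads, of which 2 also lay in DAZAP2.

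Members of both lines lay in the same gene in 135 cases (0.686% of genes), which is 6.77% of the host genes in C4-2B and 17.1% of those in C4-2BER. Over all protein-coding genes, 4.01% hosted a C4-2BER-only member and 10.1% a C4-2B-only member. C4orf50 held a C4-2B-only member in coding exon 18 with 25 reads and a C4-2BER-only one in coding exon 25 with 46 reads. AKAP13, an anchor of protein kinase A, had 75 reads in a 3′ UTR in C4-2B and 33 reads in coding exon 7 in C4-2BER. SLC5A5, the iodide carrier of the thyroid, had 30 reads in coding exon 5 in C4-2B and 49 reads in coding exon 12 in C4-2BER, and its promoter had a peak in the C4-2BER list alone. MOV10, DHX58, KREMEN1, AMZ1 and ARID1B were the other genes of this kind with the highest values on both sides. In KREMEN1 the intervals of the lines lay in the same 3′ UTR, 1945 bp apart.

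Host genes mostly had an open promoter in both lines. A promoter peak, within 2000 bp of any TSS, was in both lists for 1712 of 1995 C4-2B-only host genes (85.8%, 84.2 to 87.3) and 681 of 789 C4-2BER-only host genes (86.3%, 83.7 to 88.5), close to the 86.3% and 86.2% of genes that host shared peaks. Over all protein-coding genes it was in both lists for 77.7%, in neither for 16.0%, in the C4-2B list alone for 2.83% and in the C4-2BER list alone for 3.39%. In the same line alone it was found for 55 C4-2B-only host genes (2.76%) and 31 C4-2BER-only host genes (3.93%, 2.78 to 5.52). In the opposite line alone it was found for 63 (3.16%) and 18 (2.28%). Hosts of members with a −log10 q of at least 10 had it in the opposite line alone in 15 (1.97%) and 4 cases (2.20%). In the same line alone they had it in 24 of 760 (3.16%) and 12 of 182 cases (6.59%, 3.81 to 11.2). The 12 were GREM1, NKX2-3, NPHS1, RASGRF2, SCN7A, SERPINB11, SLC16A8, SLC5A5, SMC1B, SNORC, SPESP1 and VIPR2, listed after their values were seen. An exonic member of 1 line thus came with a promoter peak of that line alone in few genes.

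A list made mostly of androgen-regulated genes, with the transcription factors FOXA1 and HOXB13 added, held many C4-2B-only members for its number. It was put together with results of these lines known. Of its 28 genes, 9 hosted a C4-2B-only member (32.1%, beside 10.1% of all genes) and 1 a C4-2BER-only member (3.57%, beside 4.01%). Their eligible exons held 11 C4-2B-only members at 77.2 per Mb, beside 26.0 per Mb over all genes. The metalloreductase STEAP4 had 30 reads in the 3′ UTR of its last exon (−log10 q 19.6) and STEAP2 78 reads in coding exon 4 (16.8). ACP3, prostatic acid phosphatase, had 41 reads in coding exon 7 (13.8) and a weaker member with 13 reads, and CAMKK2 38 reads in its 3′ UTR (10.4), 157 bp from a C4-2BER interval. HOXB13, KLK2, FKBP5, FOXA1 and NDRG1 held members below 10, of which those of FOXA1 had 77 and 79 reads but a fold of only 1.70 and 1.72. The FKBP5 member lay 131 bp from a C4-2BER interval. ELL2, an elongation factor, hosted the C4-2BER-only member, with 21 reads and a −log10 q of 8.69. None of these members held an androgen response element or a forkhead match.

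Neuroendocrine genes showed no such number, with 22.5 C4-2B-only and 7.49 C4-2BER-only members per Mb, beside 26.0 and 9.75 over all genes. Of 25, SRRM4, NCAM1 and PAX5 hosted a C4-2B-only member with 17, 13 and 11 reads, and SNAP25 a C4-2BER-only member with 9 reads at the opening exon of another transcript. Of 30 adhesion and neuronal genes, 9 hosted a C4-2B-only member (30.0%) and RELN alone a C4-2BER-only member (3.33%), beside 10.1% and 4.01% of all genes. These genes have more eligible exon per gene than all genes, and per Mb the values were 41.9 and 3.22, beside 26.0 and 9.75. SMARCA4, a chromatin remodeller, had 38 reads (−log10 q 20.6), the cadherin CDH2 28 reads in coding exon 9 (19.5), and SLIT2 21 reads (12.2). Many of these genes were named by the study, so the list is not independent evidence. By symbol, 61 of 373 solute carriers hosted C4-2B-only (16.4%) and 24 C4-2BER-only members (6.43%), and 16 and 7 of 96 potassium channel genes (16.7% and 7.29%). Per Mb these were 40.7 and 14.4 for solute carriers, and 39.7 and 13.9 for potassium channels. The strongest of these were SLC38A4 and KCNJ5 (44 reads, −log10 q 33.5) in C4-2B, and SLC52A3 (56 reads, 40.8) and KCNN4 (45 reads, 32.4) in C4-2BER. Zinc finger genes lay below the background, with 28 of 554 (5.05%) and 9 (1.62%), as did olfactory receptor genes, with 4 of 391 (1.02%) and 1 (0.256%).

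Among 39 HOX genes 4 hosted 5 C4-2B-only members (10.3%) and 0 a C4-2BER-only one, a share of genes near the 10.1% of all genes. Their eligible exons are short, 0.0401 Mb in all, so the 5 members amount to 125 per Mb. HOXA10 had 82 reads in coding sequence of its last exon (chr7:27171666-27172150, −log10 q 27.3), and HOXD10 28 reads (12.4) with no promoter peak in either list. Collagen genes hosted 9 of 44 (20.5%) and 2 (4.55%), protocadherins 6 of 66 (9.09%) and 2 (3.03%), semaphorins and plexins 1 of 29 (3.45%) and 2 (6.90%), and families of transcription factors 14 of 152 (9.21%) and 6 (3.95%). The shares over all genes were 10.1% and 4.01%. Collagen genes held 28.8 C4-2B-only members per Mb, near the 26.0 over all genes, protocadherins 21.6, semaphorins and plexins 5.37 and families of transcription factors 42.3. In those families FOXP2 had 46 reads in coding exon 9 of 17 (−log10 q 38.6) in C4-2B, and SOX6 41 reads (16.2). PAX8 had 37 reads (21.4) and NKX2-3 39 reads at a GC content of 79.6% (14.6) in C4-2BER.

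Keratins, the intermediate filament proteins of epithelia and hair, held several members in the same exon. Of 55 keratin genes 11 hosted a C4-2B-only member (20.0%, beside 10.1% of all genes) and 4 a C4-2BER-only member (7.27%, beside 4.01%). All 11 C4-2B-only members lay in inner coding exons, 7 of them in exon 6. In the type I cluster on chromosome 17, exon 6 held the members of KRT34 (39 reads, −log10 q 31.9), KRT40 (36 reads, 28.7), KRT32 (25 reads, 12.6), KRT10 (21 reads, 7.47), KRT35 (14 reads, 5.92) and KRT31 (12 reads, 4.35), and the C4-2BER-only member of KRT16 (15 reads, 6.34). Of these 7 genes only KRT16 had a promoter peak, in both lists. The type I exon is 221 bp long in all but KRT10, and so is the exon that held the members of KRT86 (46 reads), KRT75 (28 reads) and KRT71 (15 reads) in the type II cluster on chromosome 12. Shared peaks of the C4-2B list lay in exon 6 too, in KRT37, KRT36 and KRT14. Those in KRT36 and KRT14 held an E-box in both lists, and the KRT37 peak held none. The E-box in exon 6 was thus not particular to members. Over all exonic distal members, an E-box was found in 15.6% for C4-2B and 15.1% for C4-2BER. The lines below show the E-box in 6 of the 7 exons with members on chromosome 17, read on the gene strand, which is minus for all of them. KRT10 held none, and in KRT32 the letters around the E-box were unlike those of the other five. The sequences lie at chr17:41379066-41379095 (KRT34), chr17:40978914-40978943 (KRT40), chr17:41394958-41394987 (KRT31), chr17:41462801-41462830 (KRT32), chr17:41477628-41477657 (KRT35) and chr17:41610441-41610470 (KRT16), and were chosen after their values were seen.
KRT34: aacgtggagtctCAGCTGgcagagatccgc
KRT40: aacctggagaacCAGCTGgccgagatccgc
KRT31: aacgtggagtccCAGCTGgcggagatccgc
KRT32: agtacgcaggccCAGCTGaggcttagagag
KRT35: aacgtggaggccCAGCTGgccgagatccgg
KRT16: agtgtggaggagCAGCTGgcccagctacgc

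These genes are paralogs, so the intervals are not independent. Over at least 100 bp and without gaps, the 7 exon 6 intervals of the cluster were 50.0% to 84.4% identical in pairs (median 63.8%). Reads with a mapping quality below 10 were removed by the authors, and any part of reads placed on the wrong paralog was not tested.

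The surroundings of members were described by the intervals near them. Of the other intervals of the C4-2B list within 50 kb of a C4-2B-only member, 33.5% were line-only, beside 32.2% around shared exonic distal peaks and 38.7% around all C4-2B-only distal peaks. Around C4-2BER-only members 20.0% were line-only, beside 16.5% and 23.9%. Over chromosomes, C4-2BER-only members made up 27.3% of all members (95% interval 25.7 to 28.9), from 15.4% on chromosome 21 (4 C4-2BER-only and 22 C4-2B-only members) to 43.3% on chromosome 19 (65 and 85). Among all line-only distal peaks the share was 29.0%, with 38.0% on chromosome 19 and 34.0% on chromosome 21.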

How the data were processed

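ATAC-seq libraries were made with Tn5 (Nextera), 2 per line. The authors trimmed reads with cutadapt, aligned them to hg38 with Bowtie2, kept a mapping quality of at least 10, removed duplicates with picard, merged the libraries of a line and called peaks with macs2 without a model (extension 200 bp, and a shift given as 100 bp without a minus sign, which moves read ends forward). The macs2 version is not given in the sources used here, and the submitters' processing notes name bedtools 2.17. The deposited lists hold, per summit, the fold enrichment ratio over local background, the −log10 p, the −log10 q and the summit position.

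Summits of 1 interval were joined, keeping the highest. Reads at a summit were recovered from the deposited fold and −log10 p, with a largest error in −log10 p of 0.000251 for C4-2B and 0.000259 for C4-2BER; on 2720 simulated summits 100% were recovered, and overlaps were tested on 113 simulated intervals. Exons and start sites came from GENCODE release 44; UTR and coding classes used protein-coding transcripts. Python 3.11.15, numpy 2.4.6, pandas 2.3.3, scipy 1.17.1, pysam 0.24.0 and matplotlib 3.10.9 were used. Shares carry Wilson 95% intervals, and no test between lines was possible. Members and gene lists were chosen with earlier results of these data known. Named were the 12 members per line of highest −log10 q with no interval of the other list within 10000 bp. Also named were 6 host genes per line from those with most members, where others were tied with them in C4-2B. The rest were 8 genes of both lines, and up to 4 members per gene list with a −log10 q of at least 10. Alternatives changed strength limits, overlap, start sites, exons and window. Some members that meet this rule are not reported here.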

Additional observations from a re-analysis of the deposited data

How the results depend on the processing

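No paired analysis was possible because each line has a single merged list, and for the same reason no replicate could be left out. The difference between lines kept its direction under all 5 alternatives tried for GC content and for the shares with SP1, forkhead, CTCF, GATA, NRF1, HNF4 and the androgen response element, and under all 12 for the coding share; the first exon share kept it in 10 of 12 (start sites of every transcript remove most first exons by construction) and the last exon share in 7 of 12. Of the main results, 88 values stayed within their error or within 1.5 times and 36 moved. With a −log10 q of at least 10 in both lists, there were 343 C4-2BER-only members, GC medians were 47.8% and 59.2%, forkhead was in 11.1% of C4-2B-only and SP1 in 31.8% of C4-2BER-only members, and 42 genes hosted members of both lines (86 at 5 or more, 135 in the main count). With equal numbers of top peaks, there were 1323 C4-2B-only members, with a GC median of 47.8%, forkhead in 10.7% and SP1 in 5.52%. For strong members against all peaks of the other list, the numbers were 788 and 189, GC 47.3% and 61.2%, forkhead 12.7% and 2.12%, SP1 5.08% and 40.7%, and 10 genes were of both lines. Windows of 250 bp to each side gave GC 46.1% and 49.9%, forkhead 14.2% and 8.31%, and SP1 13.8% and 29.2%. A reciprocal overlap of 50% gave 1372 C4-2BER-only members and 503 genes of both lines. With start sites of every transcript, last exons held 63.2% and 67.3%, and 88 genes were of both lines. With canonical transcripts only, there were 542 C4-2BER-only members, the coding share was 50.5% and 49.1%, last exons held 61.3% of C4-2BER-only members, and 77 genes were of both lines. The lncRNA start sites, an alternative chosen after seeing the data, moved none of the main results. The causes were not tested.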
